A study of Mus musculus with 33 samples.

Results

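The genes described here code for splicing factors and for heterogeneous nuclear ribonucleoproteins (hnRNPs), followed in cultured mouse spleen cells over 3 treatments and 3 times. They were chosen by name: every array symbol that starts with Hnrnp, Hnrp, Srsf, Sfrs, Sf3, Snrp, Prpf, U2af or Rbm with a digit, leaving out Hnrnpll. The rule gave 83 of the 13409 genes named on the array. Of these, 72 had values on at least 1 array and 50 had values on all 33. The 11 without values were Hnrnpm, Rbm22, Rbm31y, Rbm34, Rbm46os, Rbm8a, Sf3b1, Snrpd2, Srsf11, Srsf2 and Srsf5, and nothing can be said of them.

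Single-cell suspensions from spleens of female BALB/c mice aged 2 months were cultured with an equimolar mix of the CpG oligodeoxynucleotides (ODN) 1555 and 1466 at 1 uM, with an equimolar mix of the control ODN 1612 and 1471 at 1 uM, or in medium alone. RNA was taken after 2, 4 and 8 h, with 4 arrays per treatment at 2 h, 4 at 4 h and 3 at 8 h. CpG ODN mimic bacterial DNA and act through the endosomal receptor Tlr9, which B cells and dendritic cells carry. The control ODN answers for effects of ODN that do not depend on the sequence, and medium alone for changes that culture itself brings. No group had a sample taken before culture, no genetic change was involved, and every culture held all cell types of the spleen, so a difference cannot be assigned to 1 type.

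Splicing removes introns in a particle, the spliceosome, that forms anew on each intron. Small nuclear ribonucleoproteins (snRNPs) carry Sm proteins such as Snrpd1, the U2AF dimer and the SF3 complexes mark the 3′ end of the intron, and PRPF proteins build and rearrange the particle. SR proteins (Srsf genes) bind exons and mostly promote their use, while hnRNP proteins coat the transcript and often oppose them. RBM genes form a mixed group with RNA-recognition domains, some of which act in splicing. In lymphocytes, changes in the balance of these factors are known to shift isoforms such as those of the surface phosphatase CD45.

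Each array compared Cy5-labelled RNA of 1 culture with the same Cy3-labelled mouse reference RNA, a mix of cell types and tissues. A level below is the log2 ratio of the culture to this reference after centring each array on its median, and a difference is between 2 mean levels, given ± its standard error. Levels were compared between samples, never between genes. A gene was called at a limma adjusted p below 0.05 over all genes tested. Arrays measured 7908 to 11129 probes, and pairs of arrays correlated between 0.664 and 0.961 across probes. The repeats came from separate experiments, per the design text, but whether repeats shared mice is not stated, so p-values measure the spread between these arrays.

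At 8 h, 6 of 72 members were higher with CpG ODN than with control ODN and none was called lower. These were the hnRNP Hnrnpab, the Sm core protein Snrpd1, Prpf31, which joins the U4 and U6 particles to U5, the small U2AF subunit U2af1, the SF3B subunit Sf3b3, and Rbm17, which binds partners at the 3′ splice site. Their differences lay between 0.74 and 1.17 on the log2 scale, or 1.67-fold and 2.25-fold. Against medium, 5 of 72 were higher and none was called lower: Hnrnpab, Prpf31, Rbm17, Sf3b3 and Prpf8, the U5 protein at the catalytic centre of the spliceosome. Against both, 4 were higher, namely Hnrnpab, Prpf31, Rbm17 and Sf3b3. Because the arrays hold whole spleen cell cultures, a change in the number of cells of a type and in the RNA per cell cannot be told apart.

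The share called against control ODN, 8.33% of members, was below the 10.0% of 9494 genes called in that comparison, and the 6.94% called against medium was below 11.8% of 9478 genes. Counted upward alone, 8.33% of members stood beside 4.55% of genes against control ODN, and 6.94% beside 5.66% against medium. Downward, no member was called, against 5.45% and 6.11% of genes. All CpG ODN arrays with a value lay above all control ODN arrays with a value for 17 members and below them for 4, beside 10.8% and 19.3% of genes. Hnrnpu, among the 17, had values on 2 control ODN arrays. The median member was 0.11 higher with CpG ODN than with control ODN, where the median gene was lower by 0.12 (-0.12), and 46 of 72 members lay above 0, or 63.9% beside 38.7% of genes. These are descriptions, and the difference between members and other genes was not tested.

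Hnrnpab, an A/B-type hnRNP that binds RNA and single-stranded DNA, stood at -0.34, 0.04 and 0.12 in the CpG ODN cultures at 8 h, against -1.12, -1.05 and -1.52 with control ODN and -1.01, -0.93 and -1.02 in medium. The groups did not overlap, and all 3 CpG ODN arrays lay above all 6 others. The difference was 1.17 ± 0.25 against control ODN (limma adjusted p = 0.00165, higher in 3 of 3 arrays) and 0.93 ± 0.25 against medium (limma adjusted p = 0.0112).

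Snrpd1, the SmD1 protein of the ring that all spliceosomal U snRNPs except U6 carry, stood at -0.42, -0.01 and 0.05 with CpG ODN, against -1.26, -1.0 and -1.52 with control ODN and -1.48, -0.34 and -0.88 in medium. The CpG ODN arrays were all above the control ODN arrays, while 1 medium array, at -0.34, lay among the CpG ODN values. It was higher than with control ODN by 1.14 ± 0.27 (limma adjusted p = 0.0051), and the difference of 0.77 ± 0.27 from medium was not called (limma adjusted p = 0.058). Without medium replicate 2 that difference was 1.05 (limma adjusted p = 0.0174), and it was also called without CpG ODN replicate 1 (limma adjusted p = 0.0456).

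Prpf31 stood at 0.28, 0.53 and 0.69 with CpG ODN, against -0.37, -0.63 and -0.76 with control ODN and -0.62, -0.61 and -0.73 in medium. CpG ODN cultures were all above 0 and the other cultures all below it. The difference was 1.09 ± 0.26 against control ODN (limma adjusted p = 0.00568) and 1.15 ± 0.26 against medium (limma adjusted p = 0.00275). Both calls held without any 1 of the 8 h arrays compared.

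Rbm17, also known as SPF45, an alternative splicing factor, stood at 0.84, 0.95 and 0.99 with CpG ODN, against 0.27, -0.11 and 0.20 with control ODN and -0.17, -0.10 and -0.06 in medium. The CpG ODN values lay close together and above all others. Sf3b3, a scaffold subunit of the complex that holds U2 snRNP at the branch site, stood at 0.64, 1.27 and 0.77 with CpG ODN, against -0.13, 0.29 and 0.28 with control ODN and -0.28, 0.06 and -0.09 in medium. The groups again did not overlap. Rbm17 was higher than with control ODN by 0.80 ± 0.25 (limma adjusted p = 0.0323) and than in medium by 1.03 ± 0.25 (limma adjusted p = 0.00453). For Sf3b3 the differences were 0.74 ± 0.22 (limma adjusted p = 0.0253) and 0.99 ± 0.22 (limma adjusted p = 0.00208).

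U2af1, which reads the AG at the 3′ end of the intron, stood at -0.25, 0.11 and 0.37 with CpG ODN, against -1.20, -0.84 and -0.69 with control ODN and -0.92, -0.68 and -0.48 in medium. The CpG ODN arrays lay above all others. The difference from control ODN was 0.99 ± 0.29 (limma adjusted p = 0.0244), and that from medium, 0.77 ± 0.29, was not called (limma adjusted p = 0.0825). Prpf8 stood at 0.03, 0.49 and -0.06 with CpG ODN, against 0.04, 0.15 and -0.09 with control ODN and -0.30, -1.54 and -0.45 in medium. Its values overlapped between the ODN groups, with a difference of 0.12 ± 0.23 (limma adjusted p = 0.843), and it was higher with CpG ODN than in medium by 0.91 ± 0.23 (limma adjusted p = 0.00726). Control ODN and medium differed by 0.79 ± 0.23 for Prpf8, which was not called (limma adjusted p = 0.999).

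The calls for Hnrnpab, Snrpd1 and Prpf31 against control ODN held without any 1 array of the compared groups. Rbm17 lost its call without CpG ODN replicate 1, 2 or 3 or control ODN replicate 2 or 3 (limma adjusted p of 0.0542, 0.0889, 0.0898, 0.141 and 0.0581), U2af1 without CpG ODN replicate 2 or 3 or control ODN replicate 1 or 2 (0.0731, 0.112, 0.0978 and 0.0542), and Sf3b3 without CpG ODN replicate 2 or control ODN replicate 1 (0.18 and 0.114). Without CpG ODN replicate 2, 3 members were called against control ODN. Against medium, Prpf8 differed by 0.53 without medium replicate 2 (limma adjusted p = 0.112) and lost its call without CpG ODN replicate 2 (0.0655), Hnrnpab lost its call without CpG ODN replicate 3 (0.0553), and 8 members were called without CpG ODN replicate 1 and 9 without medium replicate 1.

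**Figure D1:**
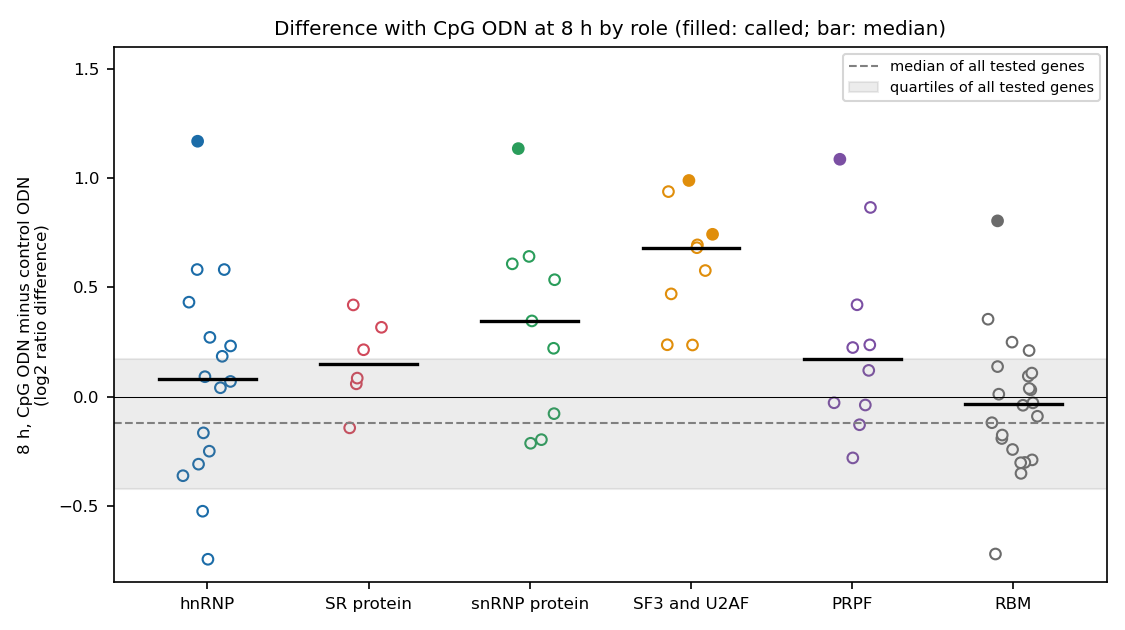
Each point is 1 member, plotted by role on the horizontal axis and by its log2 difference between CpG ODN and control ODN at 8 h on the vertical axis, filled where called, with a bar at the median of the role. The grey band holds the middle quartiles of all genes tested and the dashed line their median of -0.12. All 9 SF3 and U2AF genes lie above 0, with a median of 0.68, and the 22 RBM genes are centred near 0.

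By role, the SF3 and U2AF genes were the group with all members on 1 side between CpG ODN and control ODN at 8 h. Groups on 1 side also occurred between control ODN and medium, where no gene was called. There all 6 SR proteins lay below 0 at 8 h, and all 6 SR proteins and all 9 SF3 and U2AF genes at 4 h. All 9 had positive differences from control ODN, between 0.24 and 0.99 with a median of 0.68, and 2 of them, U2af1 and Sf3b3, were called. Against medium, 8 of 9 were positive with a median of 0.64 and 1 was called. The large U2AF subunit U2af2, which binds the polypyrimidine tract, stood at -0.07, 2.05 and 1.14 with CpG ODN, against -0.15, -1.12 and 1.58 with control ODN and 0.41, -1.78 and -0.34 in medium, a spread so wide that neither its difference of 0.94 ± 0.56 (limma adjusted p = 0.341) nor that of 1.61 ± 0.56 from medium (limma adjusted p = 0.0583) was called. The difference of U2af2 from medium was called without CpG ODN replicate 1 (1.01 to 2.17 over the arrays left out in turn, lowest limma adjusted p = 0.0149) and without medium replicate 1 (0.0159).

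Of 9 snRNP proteins, 6 had positive differences from control ODN, with a median of 0.35, and Snrpd1 was the 1 called. Among 10 PRPF genes 6 were positive, with a median of 0.17, and Prpf31 was called. Among 16 hnRNP genes 10 were positive, with a median of 0.08, and Hnrnpab was called. The 6 SR proteins spanned -0.14 to 0.42 with none called, including Srsf1, at -0.14 ± 0.21, and Srsf3, at 0.42 ± 0.23 (limma adjusted p of 0.785 and 0.298). The 22 RBM genes had a median of -0.03, and Rbm17 was the 1 called.

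Most members did not pass the test, among them some of the best known. Hnrnpk, a poly(C)-binding protein, differed between CpG ODN and control ODN at 8 h by -0.25 ± 0.25, Hnrnpa1, the prototype hnRNP that represses exons, by 0.23 ± 0.32, and Snrpn, an imprinted Sm protein, by -0.21 ± 0.28 on the probe used and 0.48 ± 0.26 on its second probe. For Rbm39, an SR-like coactivator, the difference was 0.03 ± 0.73 on 2 and 3 arrays, with levels in medium at 2 h running from -0.01 to 4.07. Limma adjusted p for these 4 genes lay between 0.637 and 0.991.

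The 250 bases before the annotated start of the 4 members higher than both controls at 8 h are given here with those of Prpf40b, which rose with time in every treatment, since these members differed by treatment and by time. The sequences are from RefSeq on GRCm38.p6, each read 5′ to 3′ on the strand of its gene: Hnrnpab at chr11:51606882-51607131 (minus), Prpf31 at chr7:3629735-3629984 (plus), Rbm17 at chr2:11603200-11603449 (minus), Sf3b3 at chr8:110846804-110847053 (minus) and the upstream one of the starts of Prpf40b at chr15:99294991-99295240 (plus). Capitals mark matches to the motifs searched on both strands. These were CCAAT, whose reverse complement reads ATTGG, and the GC box GGGCGG, whose reverse complement reads CCGCCC, then the E-box core CACGTG, the cAMP response element TGACGTCA and the core of the interferon-stimulated response element.
Hnrnpab: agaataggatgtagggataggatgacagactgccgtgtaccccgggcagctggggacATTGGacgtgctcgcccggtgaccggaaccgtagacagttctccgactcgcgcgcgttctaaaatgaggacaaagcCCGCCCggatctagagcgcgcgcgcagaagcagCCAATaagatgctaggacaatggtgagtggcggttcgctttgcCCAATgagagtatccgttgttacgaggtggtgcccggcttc
Prpf31: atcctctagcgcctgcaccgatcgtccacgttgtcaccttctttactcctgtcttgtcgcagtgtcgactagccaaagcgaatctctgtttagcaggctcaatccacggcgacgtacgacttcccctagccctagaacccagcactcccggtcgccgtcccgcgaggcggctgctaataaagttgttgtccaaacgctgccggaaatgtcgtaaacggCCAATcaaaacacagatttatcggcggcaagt
Rbm17: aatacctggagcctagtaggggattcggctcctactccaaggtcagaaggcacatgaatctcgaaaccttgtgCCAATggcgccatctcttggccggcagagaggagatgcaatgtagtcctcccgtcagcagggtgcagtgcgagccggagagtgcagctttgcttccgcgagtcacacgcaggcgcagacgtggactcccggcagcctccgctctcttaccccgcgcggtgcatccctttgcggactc
Sf3b3: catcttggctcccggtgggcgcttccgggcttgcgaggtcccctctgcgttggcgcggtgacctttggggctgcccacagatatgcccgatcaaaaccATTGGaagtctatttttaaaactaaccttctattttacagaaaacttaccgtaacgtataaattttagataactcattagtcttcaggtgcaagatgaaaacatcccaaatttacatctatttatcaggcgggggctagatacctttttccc
Prpf40b: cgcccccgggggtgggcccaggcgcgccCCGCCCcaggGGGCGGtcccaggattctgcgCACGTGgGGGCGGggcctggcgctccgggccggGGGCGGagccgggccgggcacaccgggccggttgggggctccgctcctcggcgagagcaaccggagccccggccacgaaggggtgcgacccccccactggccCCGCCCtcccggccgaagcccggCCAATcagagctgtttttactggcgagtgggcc

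CCAAT, the core of the CCAAT box, was found in all 4, at 193, 84 and 41 bases before the start in Hnrnpab, at 32 in Prpf31, at 177 in Rbm17 and at 152 in Sf3b3. Over windows from 250 bases before the start to 50 after it, CCAAT occurred in 7 of 7 promoters of the 6 matched members called higher with CpG ODN against either control (7 members, without Snrpd1, and with overlapping windows for the starts of U2af1), in 8 of 12 promoters of members that were higher with time in medium, in 3 of 4 of those lower, in 46.5% of 99 promoters of 73 matched members and in 37.4% of 32851 mouse promoters. CACGTG, the E-box core, occurred in 0 of those 7, in 3 of 12 promoters of the members that rose in medium, in 12.1% of the members' promoters and in 7.15% of all. GGGCGG, the GC box, was in 57.1% of the 7, in 57.6% of the members' promoters and in 35.7% of all. Neither TGACGTCA, the cAMP response element, nor the interferon-stimulated element was found in the 7. A match is a run of letters in a window and not a binding site.

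At 2 and 4 h no member was called between CpG ODN and either control, and so few genes of any kind were called that this does not set the members apart. None of 70 members was called between CpG ODN and control ODN at 2 h (0.0430% of 9302 genes were called) and none of 72 between CpG ODN and medium (0.0420% of 9534). At 4 h none of 72 was called against control ODN (0.384% of 9630 genes) or against medium (0.218% of 9654). An unadjusted p below 0.05 was found at 4 h for 2 members against control ODN and 2 against medium, beside 305 of 9630 and 467 of 9654 genes. Rbm17 was already at 0.36, 0.04, 0.61 and 0.72 with CpG ODN at 4 h, against -0.03, -0.80, -0.24 and 0.29 with control ODN and 0.11, -0.22, -0.06 and 0.16 in medium, with overlap and a difference from control ODN of 0.63 ± 0.21 (limma adjusted p = 0.691).

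Control ODN and medium were not told apart for any member. Limma called 0 of 70 members at 2 h and 0 of 72 at both 4 and 8 h, with 0 of 9239, 9637 and 9526 genes called, or 0%. Unadjusted p was below 0.05 for 3, 1 and 5 members, beside 229, 176 and 379 of those genes. At 4 h, 61 of 72 members lay below 0 in control ODN minus medium, beside 5693 of 9637 genes. The share above 0 was 15.3% of members beside 40.9% of genes, and the medians were -0.11 and -0.04. This difference between members and other genes was not tested.

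With time in culture without ODN, the few hnRNP and PRPF genes called went in both directions, and the called SR proteins rose. Between 8 h and 2 h these were 3 of 16 hnRNP (18.8%), 3 of 10 PRPF (30.0%) and 2 of 6 SR genes (33.3%), beside 14.6% of all genes. Several of these calls were lost when 1 array was left out, as given below, so they do not describe the roles. In medium, 13 of 72 members differed between 8 h and 2 h, or 18.1%, beside 14.6% of 9475 genes: 8 were called higher (11.1%, beside 9.26% of genes) and 5 lower (6.94%, beside 5.30%). Those higher were Hnrnpa3, Prpf40b, Srsf1, Srsf10, Rbm6, Rbm26, Rbm43 and Rbm47. Those lower were Hnrnpa1, Hnrnpk, Prpf6 and Prpf8, with Rbm3 counted as the fifth on 1 of its probes, whose other probe moved the opposite way. From 2 to 4 h in medium 1 of 72 was called, or 1.39% beside 1.58% of 9560 genes: Hnrnpa3, higher by 0.73 (limma adjusted p = 0.045). This count was 16 with array weights and 0 with the compared groups alone, with the mean over probes or without the early arrays. It was also 0 without medium 2 h replicate 1, 3 or 4 or 4 h replicate 1 or 2, and 2 without medium 2 h replicate 2 or 4 h replicate 4.

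**Figure D2:**
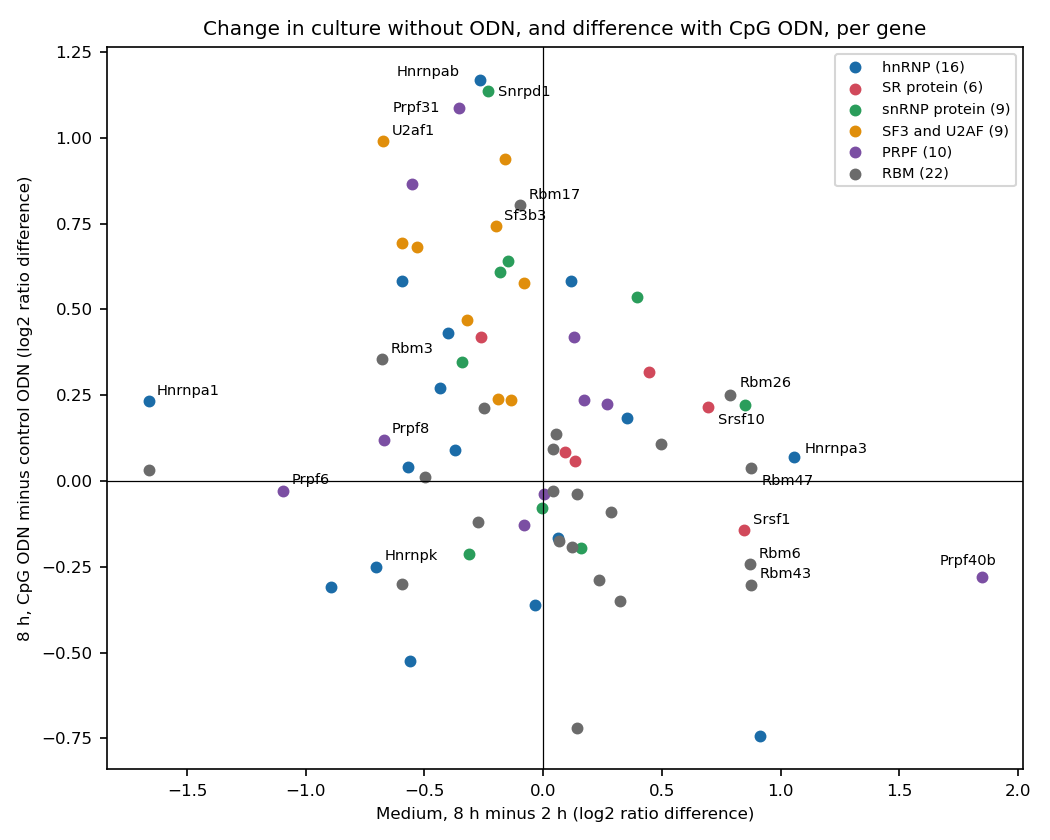
Each point is 1 of 72 members, by its change in medium between 8 h and 2 h (horizontal axis, log2) and its difference between CpG ODN and control ODN at 8 h (vertical axis, log2), with names for members called on either axis. The comparisons share no array. The 6 members called on the vertical axis, at 0.74 to 1.17, all had changes in medium below 0 that were not called, and none of the 13 called on the horizontal axis was called on the vertical one.

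Among hnRNP genes, Hnrnpa3, an A/B-type protein that binds RNA transport signals, stood at 0.29, 0.67 and 0.49 in medium at 8 h, against -0.53, -0.90, -0.57 and -0.29 at 2 h. The times did not overlap, and the difference was 1.06 ± 0.21 (limma adjusted p = 0.000751). Hnrnpa1 went the other way, at -1.52 and -1.19 on the 2 medium arrays that measured it at 8 h, against 0.40, 0.35 and 0.17 on 3 arrays at 2 h, a fall by 1.66 (SE 0.32, limma adjusted p = 0.00134). At 4 h it stood at -1.29, -0.76 and 0.33 in medium. A second probe for Hnrnpa3, measured on 25 arrays, changed by 0.02 ± 0.21 in the same comparison (unadjusted p = 0.92), so the rise rests on 1 of its probes.

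Both called SR proteins rose in medium. Srsf1, the founding member of the family, which binds exonic enhancers, stood at 0.81, 1.64 and 0.88 at 8 h, against 0.17, 0.35, 0.33 and 0.22 at 2 h. Srsf10, known as a splicing repressor in its dephosphorylated form, stood at -0.08, 0.37 and -0.15 at 8 h, against -0.97, -0.57, -0.51 and -0.53 at 2 h. Neither overlapped between times, with differences of 0.85 ± 0.20 (limma adjusted p = 0.00419) and 0.69 ± 0.18 (limma adjusted p = 0.00856). A second Srsf1 probe gave 0.48 ± 0.21 (unadjusted p = 0.03).

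Prpf40b, a partner of the U1 snRNP, had the largest rise of the members in medium, at 0.53, 1.44 and 1.97 at 8 h against -0.42, -0.66 and -0.52 on 3 arrays at 2 h. All 8 h arrays were above all 2 h arrays, by 1.85 ± 0.36 on average (limma adjusted p = 0.000849). Prpf6, a bridging protein of the tri-snRNP, stood at -0.50, -0.38 and -0.35 at 8 h, against 0.45, 0.49 and 1.12 on 3 arrays at 2 h, and fell by 1.10 (SE 0.31, limma adjusted p = 0.018). The 9 SF3 and U2AF genes all had negative changes in medium, between -0.67 and -0.08, but none was called. No snRNP protein was called either, and the one with the smallest p was Snrpb, which codes for the Sm proteins B and B′, at 1.05, 1.05 and 1.31 at 8 h against a mean of 0.29 ± 0.19 (SD, n = 4) at 2 h, a difference of 0.85 with a limma adjusted p of 0.0956.

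Among RBM genes, Rbm6, which acts in alternative splicing, stood at 0.97, 0.90 and 1.23 at 8 h, against 0.18, -0.05, 0.23 and 0.28 at 2 h, and Rbm43 at 1.25, 1.31 and 1.79, against 0.49, 0.89, 0.47 and 0.44. In both the times did not overlap, with rises of 0.87 ± 0.18 and 0.88 ± 0.21 (limma adjusted p of 0.00146 and 0.00427). Rbm26, which takes part in nuclear RNA decay, stood at 0.70, 1.46 and 0.52 at 8 h, against -0.25, 0.12, 0.25 and 0.32 at 2 h. Rbm47, a cofactor of C-to-U RNA editing, stood at 0.29, -0.05 and 0.52 at 8 h, against -0.20, -0.67 and -0.99 on 3 arrays at 2 h. Neither overlapped between times: Rbm26 rose by 0.79 ± 0.20 and Rbm47 by 0.87 ± 0.29 (limma adjusted p of 0.00819 and 0.0415). The cold-inducible Rbm3 stood at -0.59, -0.19 and -0.33 at 8 h, against 0.47, 0.31, 0.23 and 0.22 at 2 h. The difference was -0.68 ± 0.19 on this probe (limma adjusted p = 0.0165) and 1.31 ± 0.30 on its second probe (unadjusted p = 0.000124). The mean of the probes gave 0.31 (limma adjusted p = 0.312), so no direction can be given for Rbm3.

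The medium array labelled 8 h replicate 2 decided several of these values. Prpf8 stood at -1.54 on it, against -0.30 and -0.45 on the other 8 h arrays, and Hnrnpk at -1.23, against -0.41 and -0.14. At 2 h in medium Prpf8 stood at -0.28, 0.08, -0.24 and 0.09 and Hnrnpk at -0.33, 0.33, 0.37 and 0.09, which overlaps its 8 h values. Over all arrays Prpf8 fell by 0.67 (SE 0.21) and Hnrnpk by 0.71 (SE 0.23), with limma adjusted p of 0.032 and 0.0368. Without it, Prpf8 changed by -0.28 and Hnrnpk by -0.39 (limma adjusted p of 0.396 and 0.33), Srsf1 by 0.58, Rbm26 by 0.50 and Srsf10 by 0.53 (limma adjusted p of 0.064, 0.112 and 0.0794), and 8 members were called in place of 13. Calls were also lost for Hnrnpk without medium 2 h replicate 2, 3 or 4 (limma adjusted p of 0.0938, 0.105 and 0.065), for Prpf8 without medium 2 h replicate 2 or 4 (0.0785 and 0.0851), for Prpf6 without medium 2 h replicate 4 (0.0991), for Rbm3 without medium 8 h replicate 1 (0.0665), for Rbm43 without medium 8 h replicate 3 (0.0508), and for Rbm47 without medium 2 h replicate 3 or 4 or 8 h replicate 1 or 3 (0.0976, 0.182, 0.0709 and 0.164). Hnrnpa0 (0.91, limma adjusted p = 0.101) was called without medium 2 h replicate 2 (0.0481) or 8 h replicate 1 (0.025), and Rbm39 (-1.66 ± 0.69, limma adjusted p = 0.115) without medium 2 h replicate 2 (-2.20, 0.0258).

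The same time comparison can be made within each ODN treatment, and the 3 comparisons share no array. With CpG ODN, 9 of 72 members differed between 8 h and 2 h, or 12.5% beside 16.6% of 9524 genes, and with control ODN 6 of 70, or 8.57% beside 10.1% of 9269. With CpG ODN 7 rose and 2 fell, where 8.45% and 8.13% of genes did, and with control ODN 5 rose and 1 fell, where 7.61% and 2.48% of genes did. In all, 20 members were called in at least 1 treatment, and none was called in opposite directions in different treatments. Prpf40b, Rbm6 and Rbm43 rose in all 3. With CpG ODN the rises were 1.21 ± 0.36, 0.66 ± 0.18 and 0.62 ± 0.21, and with control ODN 1.79 ± 0.36, 0.77 ± 0.18 and 1.00 ± 0.21 (limma adjusted p from 0.0107 to 0.0367 and from 0.0013 to 0.00492).

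**Figure D3:**
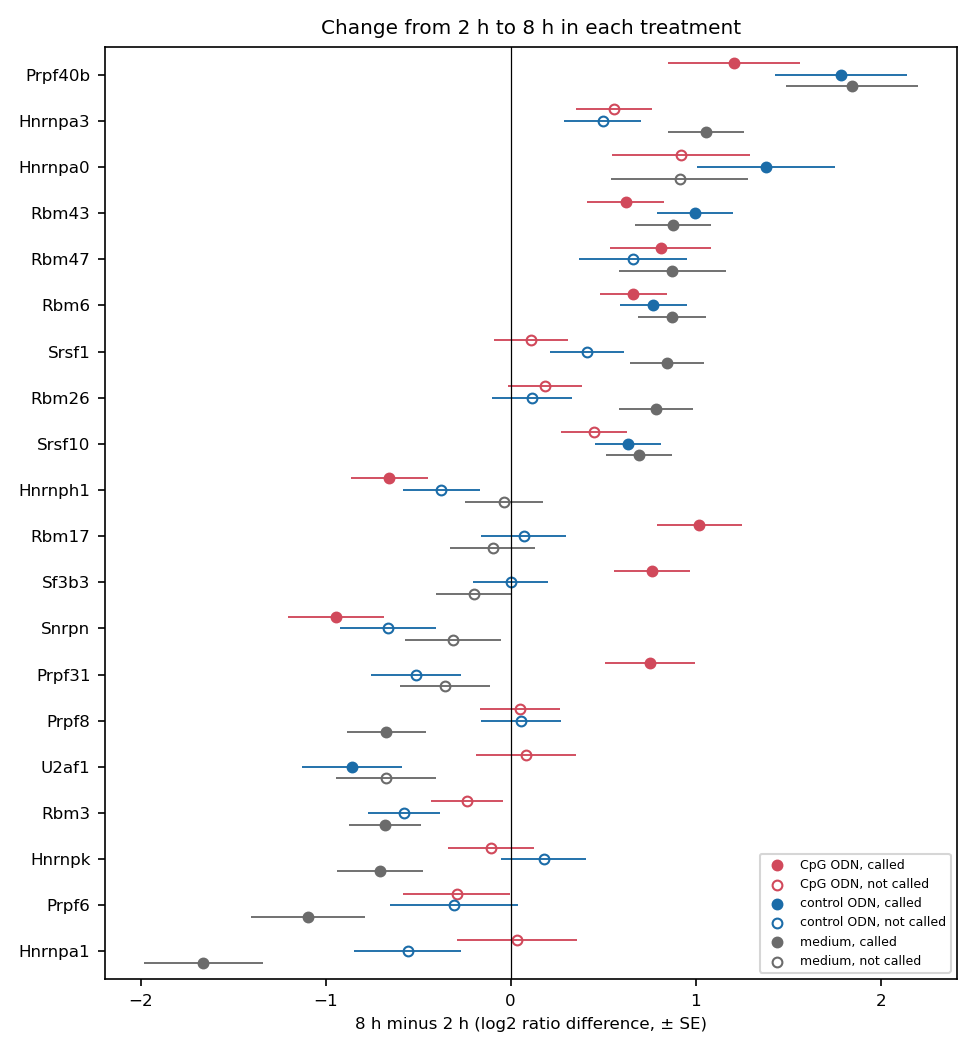
The 20 members called in at least 1 treatment are shown with their change between 8 h and 2 h (horizontal axis, log2, ± SE) in CpG ODN, control ODN and medium cultures, filled where called. Prpf40b, Rbm6 and Rbm43 have filled points to the right in all 3 treatments, Rbm17, Sf3b3 and Prpf31 have filled points in CpG ODN cultures, at 1.02, 0.76 and 0.75, and Hnrnpa1 has one in medium, at -1.66.

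For Prpf40b the values at 8 h were 0.90, 0.25 and 1.36 with CpG ODN, -0.01, 1.63 and 1.74 with control ODN, and 0.53, 1.44 and 1.97 in medium, and the treatments overlapped. For Rbm43 they were 1.09, 1.17 and 1.21 with CpG ODN, 0.96, 1.55 and 1.87 with control ODN, and 1.25, 1.31 and 1.79 in medium, again with overlap between CpG ODN and control ODN. Neither gene was called between treatments at 8 h, with differences between CpG ODN and control ODN of -0.28 and -0.30 (limma adjusted p of 0.738 and 0.475).

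Of the members called higher with time, 4 were shared between CpG ODN and medium (57.1% of the 7 in CpG ODN and 50.0% of the 8 in medium), beside 34.3% and 31.5% for all genes. Control ODN and medium also shared 4 (80.0% of 5 and 50.0% of 8, beside 74.5% and 59.9%), and CpG ODN and control ODN shared 3 (42.9% of 7 and 60.0% of 5, beside 31.1% and 35.5%). No fallen member was shared between treatments, but only 2 fell with CpG ODN, 1 with control ODN and 5 in medium, too few to compare. For all genes that fell, CpG ODN and control ODN shared 18.1% and 60.9%, CpG ODN and medium 20.3% and 31.3%, and control ODN and medium 55.2% and 25.3%. Across the 3 treatments, 30 of 70 members changed with the same sign, or 42.9%, beside 51.5% of 8987 genes.

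Other members were called with time in some treatments and not in others, which does not show by itself that the treatments differ. In CpG ODN cultures Rbm17 rose by 1.02 ± 0.23, Sf3b3 by 0.76 ± 0.20 and Prpf31 by 0.75 ± 0.24 (limma adjusted p of 0.00209, 0.00858 and 0.0307), where medium gave -0.10, -0.20 and -0.35, none called. Snrpn fell by 0.94 (SE 0.26) and Hnrnph1, which binds runs of G, by 0.66 (SE 0.21) in CpG ODN cultures (limma adjusted p of 0.0108 and 0.0291), with -0.31 and -0.04 in medium. Snrpn stood at -1.37, -1.89 and -2.40 at 8 h, against -0.90, -1.29, -1.12 and -0.48 at 2 h, and Hnrnph1 at 0.11, 0.00 and 0.12, against 1.05, 0.31, 0.61 and 0.95, without overlap between times in either. The fall of Snrpn rests on 1 of its 2 probes, which disagree at 8 h between CpG ODN and medium, at -0.28 and 0.98 (unadjusted p of 0.328 and 0.000625). In medium between 8 h and 2 h the second probe changed by -0.67 ± 0.24 (limma unadjusted p = 0.00879). A fall of Snrpn with CpG ODN alone therefore cannot be read from these values. With control ODN, U2af1 fell by 0.86 (SE 0.27, limma adjusted p = 0.0378), at -1.20, -0.84 and -0.69 at 8 h against 0.18, -0.46, 0.10 and -0.03 at 2 h, without overlap. Hnrnpa0, a binder of AU-rich RNA, rose by 1.38 ± 0.37 with control ODN (limma adjusted p = 0.0138), at 2.33, 2.61 and 2.94 at 8 h against 0.71, 1.69, 1.63 and 0.94 at 2 h. Without CpG ODN 8 h replicate 2, 4 members were called with time in CpG ODN cultures, and without replicate 3, 2.

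**Figure D4:**
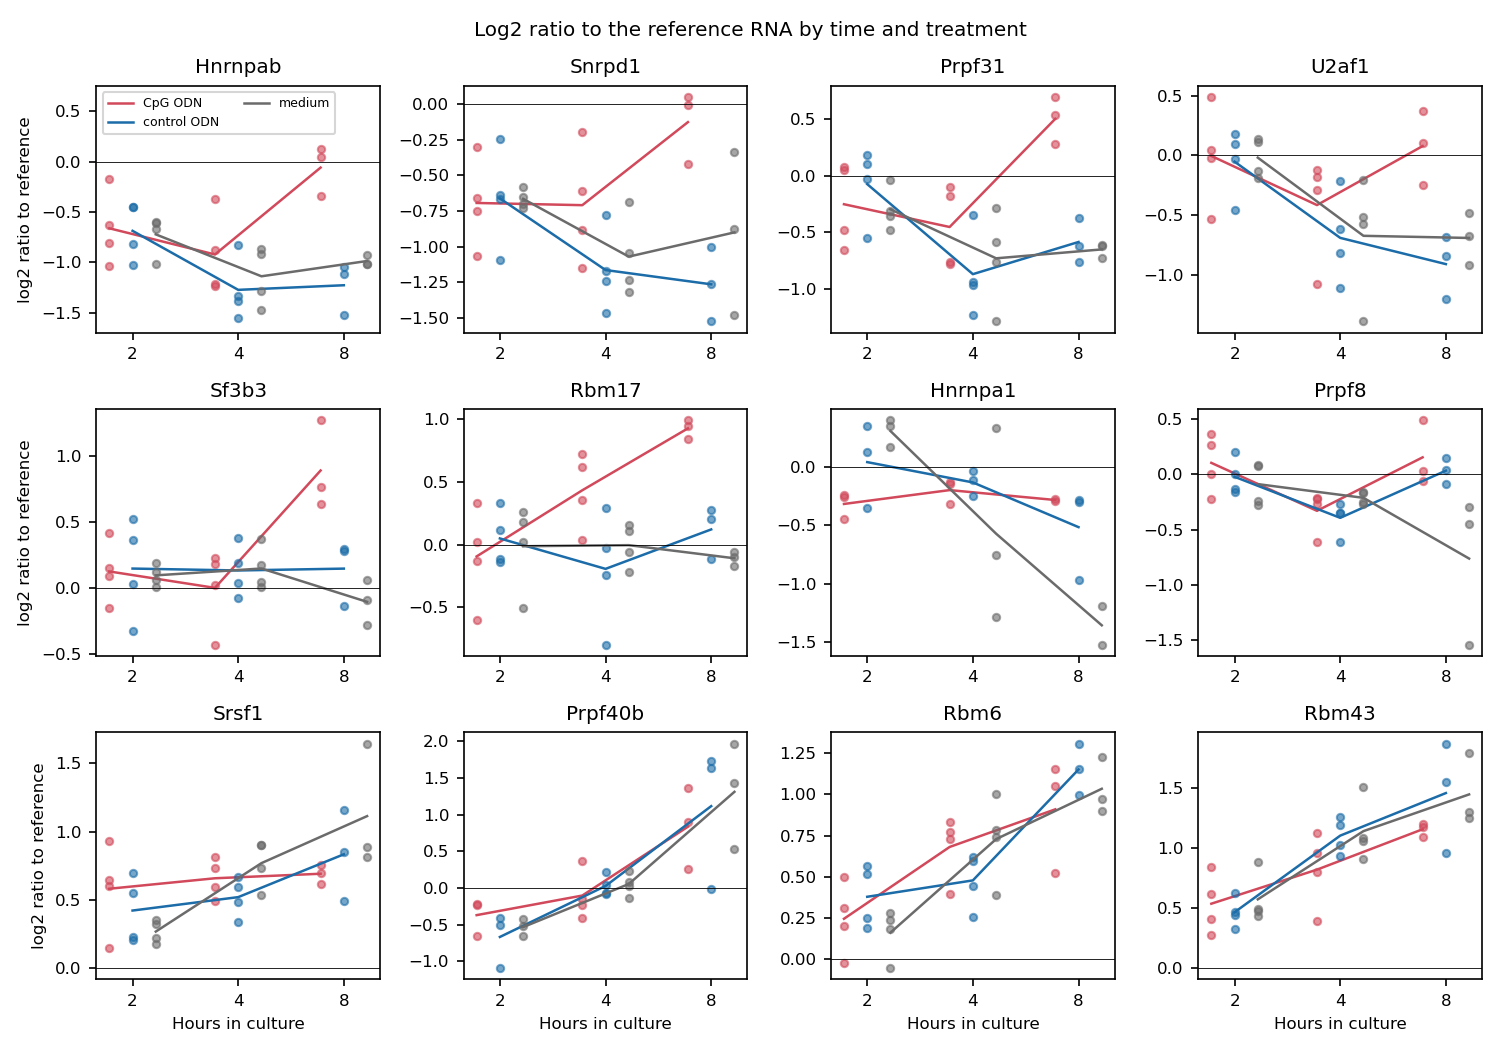
Levels of 12 members (vertical axis, log2 ratio to the reference) are plotted against hours in culture, with 1 point per array and a line through the group means. Hnrnpab, Snrpd1, Prpf31 and U2af1 have overlapping treatments at 2 and 4 h, and at 8 h the CpG ODN mean stands 0.99 to 1.17 above that with control ODN. Prpf40b, Rbm6 and Rbm43 climb in all 3 treatments.

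Whether the CpG ODN difference itself grew over the culture was tested as the difference between treatments at 8 h minus that at 2 h. Against control ODN, 2 of 70 members were called (2.86%, beside 3.26% of 9141 genes): Prpf31 by 1.26 ± 0.34 (limma adjusted p = 0.0339) and Hnrnpab by 1.14 ± 0.33 (limma adjusted p = 0.0462). Against medium, 3 of 72 were called (4.17%, beside 5.89% of 9343 genes): Hnrnpa1 by 1.70 ± 0.46, Rbm17 by 1.12 ± 0.33 and Sf3b3 by 0.96 ± 0.29 (limma adjusted p of 0.0292, 0.0377 and 0.0418). Against medium, Prpf31 (1.11) and Hnrnpab (0.87) were not called (limma adjusted p of 0.0514 and 0.119). Nor were Rbm17 (0.95) and Sf3b3 (0.76) against control ODN (limma adjusted p of 0.122 and 0.173). A call against 1 control alone therefore does not show that the controls differ. Leaving out 1 array at a time gave 0 to 3 and 0 to 5 members. Hnrnpa1 was measured on 2 CpG ODN and 2 medium arrays at 8 h, so it could not be tested when 1 of these was left out.

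These 5 genes reached that result by different routes. Hnrnpab averaged -0.66, -0.92 and -0.06 with CpG ODN at 2, 4 and 8 h, beside -0.69, -1.28 and -1.23 with control ODN, and Prpf31 -0.25, -0.45 and 0.50 beside -0.08, -0.87 and -0.59. In both, all cultures were lower on average at 4 h than at 2 h, and the CpG ODN mean was above its 2 h value at 8 h while the control ODN mean was not. Rbm17 and Sf3b3 changed by -0.10 ± 0.23 and -0.20 ± 0.20 in medium, neither called, and rose with CpG ODN. For Hnrnpa1, the CpG ODN means were -0.32, -0.20 and -0.28 at 2, 4 and 8 h, and those in medium 0.31, -0.57 and -1.35, so that its value came from the fall in medium. With control ODN Hnrnpa1 changed by -0.56 ± 0.29 between 8 h and 2 h, which was not called (limma adjusted p = 0.26).

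Other genes of the splicing machinery that the name rule leaves out were counted from a list of 98, of which 73 were measured. Between CpG ODN and control ODN at 8 h, 3 rose and 3 fell, with a median of -0.02, where 4.55% of all genes were higher and 5.45% lower. Those higher were Prmt5, which methylates Sm proteins, by 1.08 ± 0.21, Gemin6, of the SMN complex that loads the Sm ring, by 1.65 ± 0.34, and Snrnp35, of the U11 and U12 snRNP, by 0.77 ± 0.22 (limma adjusted p of 0.000856, 0.00113 and 0.0206). Those lower were the SR protein kinases Srpk2, by 1.07 (-1.07 ± 0.18), and Clk4 (-0.75 ± 0.20), and Snrnp25 (-0.79 ± 0.18), another U11 and U12 protein (limma adjusted p of 9.97e-05, 0.013 and 0.0038).

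Against medium at 8 h, 8 of the 73 rose and 4 fell, where 5.66% of all genes were higher and 6.11% lower. Among the 8 higher were Prmt5, at 1.15 ± 0.21, Gemin6, at 1.15 ± 0.34, and the Prmt5 partner Wdr77, at 0.63 ± 0.20 (limma adjusted p of 0.000384, 0.0225 and 0.0363). Among the 4 lower were again Srpk2 and Clk4, at -1.05 ± 0.18 and -0.97 ± 0.20 (limma adjusted p of 0.000127 and 0.00113). The other called genes are not named here, so those named do not stand for the whole list. The comparisons share the CpG ODN arrays. In medium, 5 of 73 rose and 4 fell between 8 h and 2 h (9.26% and 5.30% of all genes), with Srpk2, Clk4, Prmt5 and Gemin6 not among them.

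Markers of the spleen's cell types moved in the same comparisons. Between CpG ODN and control ODN at 8 h, 2 of 10 measured B cell markers and 4 of 10 T cell markers were lower. None was higher, and 5.45% of all genes were lower. The medians were -0.88 and -0.76, and the 5 neutrophil markers had a median of -0.67 with none called. Against medium at 8 h, 2 B cell, 1 T cell and 1 neutrophil marker were lower, where 6.11% of genes were. The medians there were -0.16, -0.48 and -0.58. The mean level of the B cell markers per array at 8 h ran from 1.93 to 2.10 with CpG ODN, 2.46 to 3.02 with control ODN and 1.84 to 2.90 in medium. That of the T cell markers ran from 1.34 to 1.71, 1.90 to 2.50 and 1.78 to 2.45. In medium between 8 h and 2 h, 2 of 10 T cell markers rose and 2 of 7 monocyte and macrophage markers fell, where 9.26% of genes rose and 5.30% fell. The neutrophil markers had a median change of -1.12 there. With CpG ODN between 8 h and 2 h, 4 of 7 monocyte and macrophage markers fell, with a median of -1.81, and 2 of 5 neutrophil markers, with a median of -2.25. Of the other lists between CpG ODN and control ODN at 8 h, 1 of 7 monocyte and macrophage markers was higher and 1 lower, 1 of 4 erythroid and 1 of 5 platelet markers were lower, and none of 5 NK cell, 4 dendritic cell or 5 non-splenic tissue markers was called. The part of these markers in the results for the splicing genes was not tested.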

How the data were processed

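Spleen cell RNA was measured on 33 spotted arrays in 9 groups against a common reference RNA. The authors deposited 1 log ratio per probe and array (Cy5 over Cy3, per the labels), with values from -6.51 to 8.54, which were read as log2 ratios. No source used here gives the base, the background correction or the normalization. Another base would rescale every difference but leave the p-values. Array medians lay between -0.085 and 0.024, and each array was centred on its own. Of 16720 probes, 11303 had a value on at least 1 array. Platform annotation gave 14656 probes 1 gene symbol and 6 several, which were not named; 14361 matched RefSeq, and 0 symbols changed. The probe with the fewest missing values stood for a gene, which left 9672 genes with values.

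limma 3.58.1 in R 4.3.3 fitted 1 mean per group over all arrays, with missing values left out of each gene's fit, and p-values were adjusted by Benjamini-Hochberg over all genes tested. Genes with values on fewer than 2 arrays of either group were left out of that comparison. The fit was tested on simulated data. The number of arrays limits the precision, with a median residual SD of 0.35. There was no dye swap, so dye bias is part of every level but is shared by both sides of each difference.

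The 15 comparisons were between treatments at each time, between times within a treatment, and the change of the CpG ODN difference from 2 to 8 h. Alternatives were other centring, quantile normalization, fewer arrays in the fit, array weights, genes on all arrays, the mean over probes, leaving out 4 arrays with early database numbers, leaving out each array, and a replicate block. The members, the gene lists and the tests were chosen with earlier results of these data known. Named with values are members called in any comparison, the member with the smallest p of each role in CpG ODN against control ODN at 8 h and in medium at 8 h against 2 h, and Hnrnpa1, Hnrnpk, Srsf1, Srsf3, Snrpd1, Snrpn, Prpf8, U2af1, U2af2, Rbm3 and Rbm39 whatever their values, 26 in all. Srsf2, Srsf7 and Sf3b1 were also to be named but have no values here. Protein sequences were not used here. Replicate numbers were not taken as pairs, since the labels do not tie them to shared mice and not every same-numbered pair of arrays deviated together.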

Additional observations from a re-analysis of the deposited data

Results flagged for a closer look

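In groups of 4 arrays, 5 of 139 had 1 value far from the others by Dixon's criterion, where chance gives about 1 in 20. They were Hnrnpa0 at 1.82 on CpG ODN 4 h replicate 3, Prpf8 at -0.611 on CpG ODN 4 h replicate 1, Prpf6 at 1.14 on medium 4 h replicate 4, Rbm43 at 0.889 on medium 2 h replicate 2 and Srsf10 at -0.971 on medium 2 h replicate 1. Groups of 3 were not examined.

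The difference between CpG ODN and 1 of the controls changed from 2 h to 8 h for 5 members, none called against both (limma, adjusted over all genes tested). Relative to control ODN these were Prpf31, by 1.2636 (adjusted p = 0.0339), and Hnrnpab, by 1.1435 (adjusted p = 0.0462), or 2.86% of members beside 3.26% of genes. Relative to medium they were Hnrnpa1, by 1.6951 (adjusted p = 0.0292), Rbm17, by 1.1151 (adjusted p = 0.0377), and Sf3b3, by 0.9649 (adjusted p = 0.0418), or 4.17% beside 5.89%. The value of Hnrnpa1 came from its fall in medium, and relative to control ODN it was not called (0.59, adjusted p = 0.603). Relative to medium, Prpf31 changed by 1.11 and Hnrnpab by 0.87 (limma adjusted p of 0.0514 and 0.119). Relative to control ODN, Rbm17 changed by 0.95 and Sf3b3 by 0.76 (limma adjusted p of 0.122 and 0.173). A call against 1 control alone does not show that the controls differ.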

How the results depend on the processing

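Counts below are members called by limma at adjusted p below 0.05. Fitting the compared groups alone, which leaves fewer arrays to estimate the spread, gave 2 for CpG ODN against medium at 8 h, 0 and 4 for medium at 4 h and 8 h against 2 h, 4 for CpG ODN and 3 for control ODN at 8 h against 2 h, and 0 and 1 for the change of the CpG ODN difference against control ODN and against medium. Array weights gave 1 for CpG ODN against medium at 2 h and at 4 h and against control ODN at 4 h, 9 against medium at 8 h, 16 and 20 for medium at 4 h and 8 h against 2 h, 18 for CpG ODN at 8 h against 2 h, and 5 and 8 for the changes. With genes measured on all arrays, CpG ODN against medium at 8 h gave 8. Medium at 4 h against 2 h gave 0 with the mean over probes and without the early arrays. For Rbm3 in medium at 8 h against 2 h the mean over probes reversed the sign, at 0.31. The cause of these shifts was not tested, beyond the smaller number of arrays in the first. A replicate block within each time gave 8 members for CpG ODN against control ODN at 8 h, 10 against medium at 8 h, 1 against medium at 4 h, and 5 and 7 for the changes. Shared across times, the block gave 12 in medium, 6 with control ODN and 9 with CpG ODN at 8 h against 2 h. Deviations from the group means correlated between same-numbered arrays from -0.184 to 0.736 at 2 h, -0.412 to 0.699 at 4 h and -0.0851 to 0.653 at 8 h (medians 0.2245, 0.405 and 0.484), a hint from the data and not from the design. Differently numbered arrays had medians of -0.0923, -0.159 and -0.176. Deviations sum to 0 within a group, so positive values in same-numbered pairs push the others below 0. The negative medians therefore add no separate hint.

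Leaving out 1 array gave 3 to 6 members for CpG ODN against control ODN at 8 h, 4 to 9 against medium at 8 h, 2 to 9, 4 to 6 and 8 to 15 for 8 h against 2 h with CpG ODN, with control ODN and in medium, 0 to 2 for medium at 4 h against 2 h, 0 to 3 and 0 to 5 for the changes, and 0 in the other comparisons. The change against control ODN had 0 members without CpG ODN 2 h replicate 2 or 3, control ODN 2 h replicate 1, 3 or 4, CpG ODN 8 h replicate 2 or 3, or control ODN 8 h replicate 2 or 3, and 1 without CpG ODN 2 h replicate 1 or control ODN 8 h replicate 1. That against medium had 0 without medium 2 h replicate 1 or 3, CpG ODN 8 h replicate 2 or 3, or medium 8 h replicate 3, 1 without CpG ODN 2 h replicate 2 or 3, medium 2 h replicate 4 or medium 8 h replicate 1 or 2, and 5 without CpG ODN 8 h replicate 1. Medium at 4 h against 2 h had 0 without medium 2 h replicate 1, 3 or 4 or 4 h replicate 1 or 2, and 2 without medium 2 h replicate 2 or 4 h replicate 4. For single named members, leaving out 1 array kept direction and side of the threshold in 440 values, gained a call in 7 and lost one in 31. Under the other alternatives 564 were kept, 13 gained a call, 22 lost one and 1 reversed.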
